A study of Mus musculus with 2 samples.

Results

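Endothelial cells line blood and lymph vessels, and a small number of them were carried into the primary adipose stromal cultures of this study. They were picked from raw counts of unique molecular identifiers (UMIs), each of which stands for 1 captured transcript. A cell had to hold at least 1 Pecam1 UMI, at least 1 Cdh5 UMI, at least 4 UMIs of Pecam1, Cdh5 and Esam together and no Ptprc UMI. This gave 21 cells of 29744 filtered cells in the culture of inguinal white adipose tissue (iWAT) and 223 of 28215 in the culture of interscapular brown adipose tissue (iBAT), or 244 of 57959 in all. The levels of these 4 genes chose the cells and are therefore described without a test.

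The cells came from the stromal vascular fraction of pooled fat depots of wild-type C57BL/6N mice that were 8 to 12 weeks old by the labels. They had been grown in high-glucose medium to 80% confluency and were kept for 48 h either untreated or with FGF1, FGF2 or FGF8 at 5.5 nM. Cells of all 4 treatments of a depot carried sample tags and were merged into 1 library, and no tag per cell was in the files used here. No treatment could thus be compared with another, and every value describes a depot culture across its treatments. For this assay the published methods list a vehicle, FGF1 and FGF2, and they also differ in the age range. Each depot gave a single library. Tests across samples were therefore not possible, and effects of depot cannot be told apart from other differences between these libraries.

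Endothelium is a single layer of flat cells whose identity is held by transcription factors of the ETS and SOX families and whose growth is driven by VEGF and angiopoietin receptors. In adipose tissue its capillaries pass fatty acids from blood lipoproteins to adipocytes and sit beside the mural and stromal cells from which preadipocytes are grown. Arterial, venous, capillary and lymphatic endothelium carry partly different genes. Sprouting vessels are led by tip cells that express a further set.

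Of the genes that chose the cells, Pecam1 (chr11:106543689-106641454, minus strand) encodes the adhesion molecule CD31, Cdh5 (chr8:104828231-104871143, plus strand) encodes VE-cadherin and Esam (chr9:37439344-37449615, plus strand) encodes a junctional adhesion molecule. The label was checked with Plvap (chr8:71948674-71964506, minus strand), the protein of the diaphragms of fenestrae, and Adgrf5 (chr17:43671009-43770448, plus strand), an adhesion receptor, neither of which the rule used. All 5 are protein-coding genes of GENCODE M39, with positions on GRCm39. Levels are given as CPM, counts per 1000000, the UMIs of a gene over all UMIs of the cells summed. Ranges in parentheses are 95% counting intervals (exact Poisson for CPM, Clopper-Pearson for shares, conditional binomial for ratios), and they cover counting error only. The comparison cells were filtered cells of the same library with at least 1 Pdgfra UMI and no Pecam1 UMI, called stromal cells here, 17246 in iWAT and 25144 in iBAT.

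Plvap stood at 481 CPM (405 to 566) in the iWAT endothelial cells against 0.503 CPM in stromal cells, and at 858 CPM (833 to 883) in iBAT against 1.29 CPM. The ratios were 956-fold (758 to 1204) and 664-fold (619 to 713). Adgrf5 was 139.7-fold (113 to 171) higher in iWAT and 249.8-fold (235 to 266) higher in iBAT. Summed over cells, both markers went with the label in both depots. Single cells did so less evenly, since Adgrf5 was at 0 in 4 of 21 iWAT and 14 of 223 iBAT cells, and 3 iWAT and 6 iBAT cells had no UMI of Plvap, Adgrf5, Emcn or Esam and rest on Pecam1 and Cdh5 alone. In single cells Plvap ran from 0 to 2239 CPM with a median of 451 CPM in iWAT, with 5 of 21 cells at 0, and from 0 to 5194 CPM with a median of 801 CPM in iBAT, with 18 of 223 at 0. Pecam1 ran from 31.2 to 2899.8 CPM with a median of 467 CPM in iWAT and from 20.5 to 4317 CPM with a median of 1431 CPM in iBAT. Cdh5 ran from 91.5 to 3535 CPM with a median of 511 CPM in iWAT and from 31.2 to 4127 CPM with a median of 1207 CPM in iBAT. The 2 depots overlapped across most of the range of each gene, and the iBAT median was the higher for all 3.

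**Figure D1:**
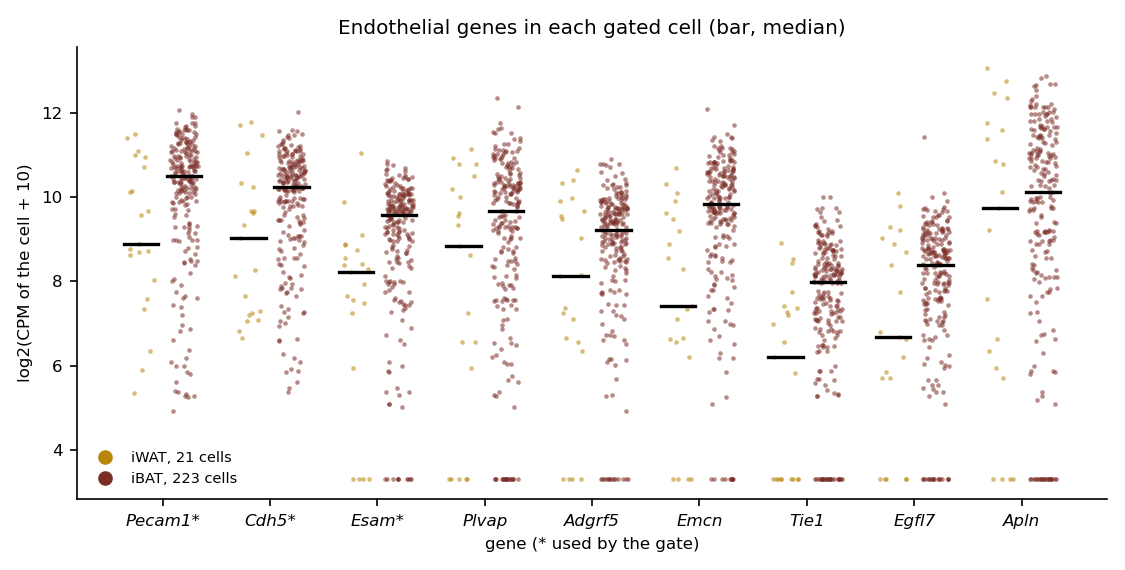
Levels of endothelial genes in single cells, as log2 of the CPM of a cell plus 10, for the 21 iWAT and 223 iBAT endothelial cells, with a bar at the median and a star at genes that the choice of cells used. Plvap medians were 451 CPM (iWAT) and 801 CPM (iBAT). Cells with no Plvap UMI were present in both.

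Promoters of the genes that best set these cells apart are shown for a look at shared sequence. Of the 15 genes with the largest ratio over stromal cells in each depot, 7 were common to both, namely Cldn5, Emcn, Mmrn2, Myct1, Robo4, Sox17 and Tie1. RefSeq promoter sequence (build GRCm38.p6, 250 bases before to 50 after the gene start) was at hand for 5 of them. Capitals mark GGAAG, which contains the GGAA core of sites bound by ETS factors, searched on both strands and so also seen as CTTCC. GGAA followed by another letter is not marked, so the counts of matches leave such cores out. No other motif was searched. Tie1 lies at chr4:118489800-118490099 on the minus strand, Robo4 lies at chr9:37401722-37402021 on the plus strand, Emcn lies at chr3:137340828-137341127 on the plus strand, Myct1 lies at chr10:5593478-5593777 on the plus strand and Cldn5 lies at chr16:18776597-18776896 on the plus strand, each written 5′ to 3′ on the strand of the gene.
Tie1: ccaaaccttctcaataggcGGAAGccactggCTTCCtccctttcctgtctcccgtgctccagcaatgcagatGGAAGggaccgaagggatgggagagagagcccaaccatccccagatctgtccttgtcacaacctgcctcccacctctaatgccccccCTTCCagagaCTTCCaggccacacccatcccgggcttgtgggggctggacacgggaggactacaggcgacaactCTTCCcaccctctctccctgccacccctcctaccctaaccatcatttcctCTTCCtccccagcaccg
Robo4: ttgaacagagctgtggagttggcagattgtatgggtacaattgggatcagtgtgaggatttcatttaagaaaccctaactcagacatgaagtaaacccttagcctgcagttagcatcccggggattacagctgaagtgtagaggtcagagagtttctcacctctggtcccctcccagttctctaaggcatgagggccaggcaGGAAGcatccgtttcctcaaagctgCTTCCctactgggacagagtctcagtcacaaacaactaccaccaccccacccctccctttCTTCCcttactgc
Emcn: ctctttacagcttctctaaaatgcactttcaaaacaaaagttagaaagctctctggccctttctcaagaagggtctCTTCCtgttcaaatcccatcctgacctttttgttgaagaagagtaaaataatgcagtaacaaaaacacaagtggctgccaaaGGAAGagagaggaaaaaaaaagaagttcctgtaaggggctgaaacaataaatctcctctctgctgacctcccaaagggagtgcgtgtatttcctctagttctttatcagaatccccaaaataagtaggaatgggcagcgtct
Myct1: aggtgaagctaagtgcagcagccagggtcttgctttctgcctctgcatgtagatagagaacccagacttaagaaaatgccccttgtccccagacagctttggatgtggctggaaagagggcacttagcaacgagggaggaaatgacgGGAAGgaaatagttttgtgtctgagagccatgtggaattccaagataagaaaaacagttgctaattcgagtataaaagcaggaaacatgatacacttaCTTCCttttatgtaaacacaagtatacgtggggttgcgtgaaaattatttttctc
Cldn5: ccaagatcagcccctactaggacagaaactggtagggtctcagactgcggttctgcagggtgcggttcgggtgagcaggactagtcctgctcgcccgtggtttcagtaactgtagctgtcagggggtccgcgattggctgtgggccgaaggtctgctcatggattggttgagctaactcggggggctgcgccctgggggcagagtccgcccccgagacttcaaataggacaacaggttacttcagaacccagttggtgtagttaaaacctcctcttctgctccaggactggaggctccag

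Tie1, an orphan receptor of the angiopoietin system, held 7 matches, Robo4, a guidance receptor of vessels, 3, and Emcn, the sialomucin endomucin, and Myct1 2 each. Cldn5, the tight-junction claudin of endothelium, held 0, which says only that these letters are not in this window. The motif was common in promoters at large, since 71.4% of 32851 entries of the table held it, with a median of 1 match. Tie1 held the most matches of the 5 promoters shown, and 0.234% of the entries held as many or more. This share was not computed for the other promoters. These matches describe the letters and are not shown to be sites of binding.

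The 2 sets of cells differed in number and depth. Endothelial cells were 0.0706% of filtered cells in iWAT (0.0437 to 0.108) and 0.790% in iBAT (0.690 to 0.901). Their median depth was 11090 UMIs in iWAT and 22305 UMIs in iBAT, against 18099 and 27761 UMIs in stromal cells. Because the choice used raw UMIs, it was repeated on cells thinned to 10000 UMIs. This left out 5588 shallower iWAT cells, 8 of the 21 endothelial cells among them, and 0 iBAT cells. It then held for 9 of 24156 iWAT cells (0.0373%, 0.0170 to 0.0707) and for 204 of 28215 iBAT cells (0.723%, 0.627 to 0.829). At 5000 UMIs, with no cell left out, it held for 13 iWAT (0.0437%) and 188 iBAT cells (0.666%). The share thus stayed higher in the iBAT library at both depths. The endothelial cells summed to 297384 UMIs in iWAT and 5500868 in iBAT, which makes iWAT levels much less precise.

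The 3 genes of the choice gave 4 to 76 UMIs per iWAT cell, with a median of 14, and 4 to 255 per iBAT cell, with a median of 70. Just inside the threshold, 2 iWAT and 5 iBAT cells had a sum of 4, and just outside it, 7 iWAT and 8 iBAT cells with both Pecam1 and Cdh5 had a sum of 3. In iWAT only 38 cells held UMIs of both Pecam1 and Cdh5, in iBAT 266. No cell that met the other conditions was left out for Ptprc. The libraries shared 8 cell barcodes, none of them of an endothelial cell. Scrublet marked 2 of the 21 iWAT cells as doublets. It marked 0 of 28215 iBAT cells, so it gave no usable call there, and doublets among the iBAT cells were not assessed in this way.

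Markers of other cell types were read in the same cells. Macrophages and endothelium share some genes, so cells with Ptprc and Csf1r UMIs and no Pecam1 or Cdh5 UMI (102 in iWAT, 202 in iBAT, median depths 12161 and 23814.5 UMIs) served as immune cells. Leaving out Ptprc, Csf1r and Adgre1, which chose cells, the other 7 of 10 immune markers summed to 20.2 CPM in the iWAT endothelial cells and 26.2 CPM in iBAT, against 19994 and 17515 CPM in immune cells. Adgre1 and Tyrobp were at 0 in both depots. The 10 Schwann markers summed to 20.2 and 15.6 CPM and the 10 muscle markers to 20.2 and 20.4 CPM. Adipoq, Plin1 and Cidec, which define adipocytes, had at most 2 UMIs in either depot. Stromal, mural and epithelial markers were higher than this and are described with the results they touch.

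Endothelial cells were then compared with stromal cells of their library, gene by gene. A gene was compared when it reached 50 CPM in 1 of the groups and was found in 10% of its cells, and it was counted when its levels differed 4-fold or more. In iWAT 104 of 4049 genes were higher in endothelial cells (2.57%) and 18 were lower (0.445%). In iBAT 204 of 4030 were higher (5.06%) and 25 were lower (0.62%). The interval lay wholly beyond 4-fold for 84 of the 104 and 198 of the 204 higher genes, but only for 3 of the 18 and 9 of the 25 lower ones. Over all genes compared, the median log2 ratio was 0.05 in iWAT and -0.02 in iBAT.

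The 2 lists of higher genes shared 76 genes, 73.1% of the iWAT list and 37.3% of the iBAT list. Of the 104 iWAT genes, 103 could be compared in iBAT, and 96 had a ratio above 1 there. Of the 204 iBAT genes, 201 could be compared in iWAT, and 197 had a ratio above 1. The iWAT count moved with the choice of cells, to 165 with a stricter choice (at least 2 UMIs each of Pecam1 and Cdh5 and a sum of at least 8) and to 39 with a looser one (no minimum sum). With only the cells free of Pdgfra UMIs it was 164, and 102 of the 104 genes were among them. In iBAT the last setting gave 269 genes, which held all 204.

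**Figure D2:**
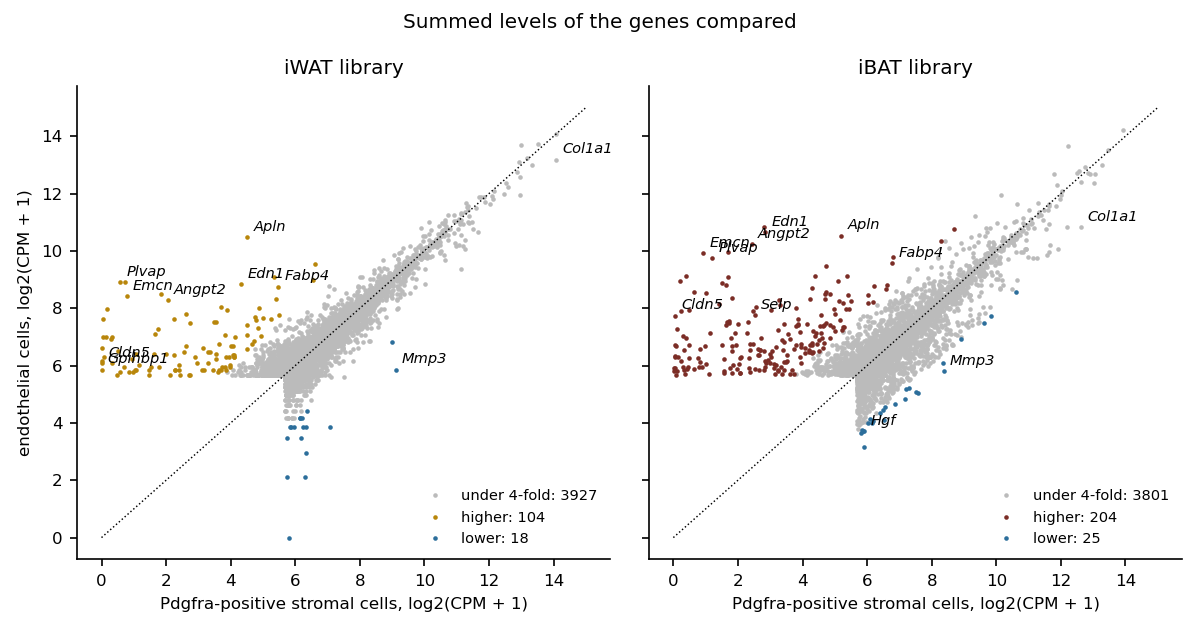
Level of every gene compared in endothelial cells (vertical) against stromal cells (horizontal) of the iWAT and iBAT libraries, as log2 of the summed CPM plus 1. The dotted line marks equal levels, and genes counted at 4-fold or more are coloured, 104 higher and 18 lower in iWAT and 204 higher and 25 lower in iBAT.

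Genes of endothelial identity were among the largest differences. The list of core endothelial genes held 28, of which 3 were used to choose the cells. Among the other 25 the ratio was above 1 for 24 in iWAT, with Clec14a not found, and for 25 in iBAT, and the interval lay above 1 for 23 and 25. These 25 genes summed to 3312 CPM in endothelial against 82.3 CPM in stromal cells of iWAT, and to 7243 against 92.2 CPM in iBAT. The cells were chosen on genes of the same cell type, so this describes them and is no test of their identity. Genes this low in stromal cells reached 50 CPM only through the endothelial cells, so counts of list members at 4-fold or more, here and below, follow in part from that filter and are given as descriptions. Emcn reached 339.6 CPM (277 to 413) in iWAT and 965 CPM (939 to 991) in iBAT, a ratio of 471 and 1081. Mmrn2, a matrix protein laid down by endothelium, was 2055-fold (1376 to 3111) and 1869-fold (1628 to 2156) higher. Cldn5 had 3 UMIs in all stromal cells of iWAT and 67.3 CPM in endothelial cells, a ratio of 7219 (2141 to 37939), and it was 4959-fold (3474 to 7332) higher in iBAT. Robo4 had 1 UMI in the stromal cells of iWAT, and its ratio of 22741 carried an interval of 3658 to 940460.

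Several core genes were too low to be compared in iWAT. Vwf, the carrier of coagulation factor VIII, had 12 UMIs in 7 of 21 iWAT cells, or 40.4 CPM, and 60.2 CPM in iBAT. Nos3, the endothelial nitric oxide synthase, had 47.1 and 94.3 CPM. Clec14a was not found in the 21 iWAT cells, whose 297384 UMIs allow up to 10.1 CPM, and stood at 31.1 CPM in iBAT. Cd93, a lectin of endothelium and myeloid cells, had 478 and 1003 CPM, but immune cells also held 169 and 312 CPM. Myct1 and Mmrn2 had no UMI in the immune cells of either depot.

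Transcription factors of the endothelial lineage were next. Of the 22 on the list, 5 of 9 compared were counted as higher in iWAT and 11 of 16 in iBAT, against 2.57% and 5.06% of all genes, with none lower. Over the list, the interval of the ratio lay above 1 for 14 and under 1 for 0 in iWAT, and above 1 for 19 and under 1 for 3 in iBAT. Sox17, a SOX factor of arterial and angiogenic endothelium, had no UMI in 17246 iWAT stromal cells and 97.5 CPM in endothelial cells, at least 10468-fold higher, and in iBAT it stood at 105 CPM, 3966-fold (2517 to 6637) higher. Erg, the ETS factor that maintains endothelial identity, was at 128 and 247 CPM, with ratios of 1372 and 596. Sox18 was at 121 and 370.1 CPM, with ratios of 565 and 359. The ETS factor Fli1 was less particular, being 7.43-fold and 10.8-fold over stromal cells while immune cells held 81.9 and 92.01 CPM.

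Meox2, a homeobox factor of fat endothelium, was 15-fold (8.71 to 24.1) higher in iWAT and 4.54-fold (4.18 to 4.92) higher in iBAT. The factors induced by blood flow did not stand out. Klf2 had a ratio of 1.07 (0.569 to 1.83) in iWAT and 1.53 (1.37 to 1.71) in iBAT, and Klf4 one of 0.923 and 0.619. Nr2f2, a factor of venous identity, was near the stromal level, with 131 against 97.97 CPM in iWAT and 181 against 214 CPM in iBAT.

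Junction genes differed from stromal cells by unequal amounts. Of the 12 listed, 2 chose the cells, and 3 of 6 and 5 of 8 compared were higher, against 2.57% and 5.06% of all genes. Over the list, these 2 included, the interval of the ratio lay above 1 for 7 and under 1 for 0 in iWAT, and above 1 for 10 and under 1 for 1 in iBAT. The direction of the 2 that chose the cells follows from that choice. F11r, a tight-junction adhesion molecule, was 6.57-fold (5.01 to 8.47) higher in iWAT and 31.4-fold (29.7 to 33.2) higher in iBAT, and Tjp1, a scaffold of tight junctions, was 4.48-fold and 4.52-fold higher. Ctnnd1, a catenin of adherens junctions in most cells, was near the stromal level at 1.18 and 1.26. Jam2 was at 0.447 of the stromal level (0.393 to 0.507) in iBAT.

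Most receptors for VEGF, angiopoietins and guidance cues lay above stromal cells. On this list of 12, 6 of 9 compared were higher in iWAT and 7 of 10 in iBAT, against 2.57% and 5.06% of all genes. Over the list, the interval of the ratio lay above 1 for 11 and under 1 for 0 in iWAT, and above 1 for 11 and under 1 for 1 in iBAT. Kdr, the main signalling receptor for VEGF, was at 87.4 CPM (57.1 to 128) in iWAT and 279 CPM (265 to 293) in iBAT, with ratios of 18 and 168. Flt1, a VEGF receptor that acts largely as a trap, was 10.3-fold and 14.4-fold higher. Flt4, the receptor for VEGF-C, reached 57.8 CPM in iBAT, 19.9-fold (17.6 to 22.4) over stromal cells. The coreceptor Nrp1 was close to the stromal level at 1.67 and 1.24. Unc5b was lower than in stromal cells in iBAT, at 0.454 of the stromal level (0.418 to 0.493).

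The Notch pathway sets the balance of tip and stalk cells, and its members above stromal cells included the ligand Dll4 and the receptor Notch4. Dll4 was at 128 CPM (90.4 to 175) in iWAT, 3429-fold (1754 to 7208) over stromal cells, with 42.1% of its 38 UMIs in 1 cell, and at 47.1 CPM (41.5 to 53.2) in iBAT, 770.1-fold (558 to 1086) over stromal cells. Notch4 was 9.20-fold and 38.3-fold higher. Notch2 was below the stromal level, at 0.253 and 0.369 of it. Of 13 genes listed, 2 of 5 compared were counted as higher in iWAT and 3 of 5 in iBAT, against 2.57% and 5.06% of all genes. Over the list, the interval of the ratio lay above 1 for 7 and under 1 for 1 in iWAT, and above 1 for 8 and under 1 for 3 in iBAT.

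Most BMP and TGF-beta components lay above stromal cells in iBAT, by less than 4-fold for the larger part, and they were mixed in iWAT. Over the 13 listed, the interval of the ratio lay above 1 for 5 and under 1 for 1 in iWAT, and above 1 for 10 and under 1 for 3 in iBAT. At 4-fold, 1 of 9 compared was higher in iWAT and 3 of 11 in iBAT, against 2.57% and 5.06% of all genes, with Tgfbr3 lower in iWAT at 0.229 of the stromal level (0.0742 to 0.533). Eng, the coreceptor endoglin, was 4.38-fold (2.91 to 6.33) and 8.76-fold (8.33 to 9.21) higher. Bmp4, a ligand, was at 174 CPM in iBAT, 17.9-fold (16.7 to 19.2) over stromal cells, and had 3 UMIs in iWAT. Id3, a target of BMP signals, was near the stromal level, with ratios of 1.19 and 1.06.

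Secreted factors that endothelium sends to mural cells and to itself were among the most abundant of these genes. Of 21 ligands listed, 7 of 12 compared were higher in iWAT and 8 of 15 in iBAT, against 2.57% and 5.06% of all genes. Over the list, the interval of the ratio lay above 1 for 11 and under 1 for 3 in iWAT, and above 1 for 12 and under 1 for 9 in iBAT. Apln, the ligand apelin of sprouting endothelium, was at 1439 CPM (1306 to 1582) in iWAT and 1478 CPM (1446 to 1511) in iBAT, 66.2-fold (59.9 to 72.97) and 41.4-fold (40.4 to 42.4) over stromal cells. Edn1, the vasoconstrictor endothelin 1, reached 1617 CPM (1584 to 1651) in iBAT, 262-fold (253 to 272) higher, and 461 CPM (387 to 545) in iWAT, 24.4-fold (20.4 to 28.9) higher. Single cells varied widely, since Apln ran from 0 to 8645 CPM with a median of 851 CPM in iWAT and from 0 to 7539 CPM with a median of 1107 CPM in iBAT.

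Angpt2, the ligand that loosens the Tie2 system, was at 309 and 1210.5 CPM, with ratios of 98.1 and 276. Pdgfb, which draws mural cells to vessels, was at 178 and 475 CPM, with ratios of 31.01 and 259.9. Pgf, placental growth factor, was 22.02-fold and 76.1-fold higher. Vegfa, the main VEGF ligand, was lower than in stromal cells, at 0.444 of the stromal level (0.350 to 0.555) in iWAT and at 0.386 of the stromal level (0.355 to 0.419) in iBAT. Hgf was counted as lower in iBAT, at 0.205 of the stromal level (0.159 to 0.260). Cxcl12, a chemokine, was at 508 and 1306 CPM, 5.48-fold and 3.84-fold over stromal cells.

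Genes of tip cells and sprouting lay above stromal cells in both depots. Of 14 listed, 9 of 11 compared were higher in iWAT and 6 of 9 in iBAT, against 2.57% and 5.06% of all genes. All 14 had a ratio above 1 in each depot, and the interval of the ratio lay above 1 for 13 and under 1 for 0 in iWAT, and above 1 for 12 and under 1 for 0 in iBAT. The list shares Apln, Angpt2, Dll4, Kdr and Pgf with the lists above. Esm1, a proteoglycan that marks tip cells, was at 101 CPM (68.1 to 144) and 304 CPM (289.9 to 319), 6.64-fold and 6.94-fold over stromal cells. Its level was at 0 in 14 of 21 iWAT cells and reached 2102 CPM in 1 cell. In iBAT 56 of 223 cells were at 0, and the highest cell held 2269 CPM. Mcam, an adhesion molecule also found on mural cells, was 17.9-fold and 12.9-fold higher. Trp53i11 was 21.6-fold (13.8 to 32.3) higher in iWAT and stood at 15.8 CPM in iBAT, below the level needed to be compared. After thinning to 10000 UMIs, Apln was found in 76.9% (46.2 to 94.96) of 13 iWAT and 85.7% (80.3 to 89.97) of 223 iBAT endothelial cells. It was found in 2.82% (0.343 to 9.81) of 71 iWAT and 4.95% (2.40 to 8.92) of 202 iBAT immune cells. The share of stromal cells with Apln is not given here, and their level enters only through the ratios above. Thinning left out 8 of the 21 iWAT cells for low depth and no iBAT cell, and the unthinned shares were 80.95% and 90.1%.

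**Figure D3:**
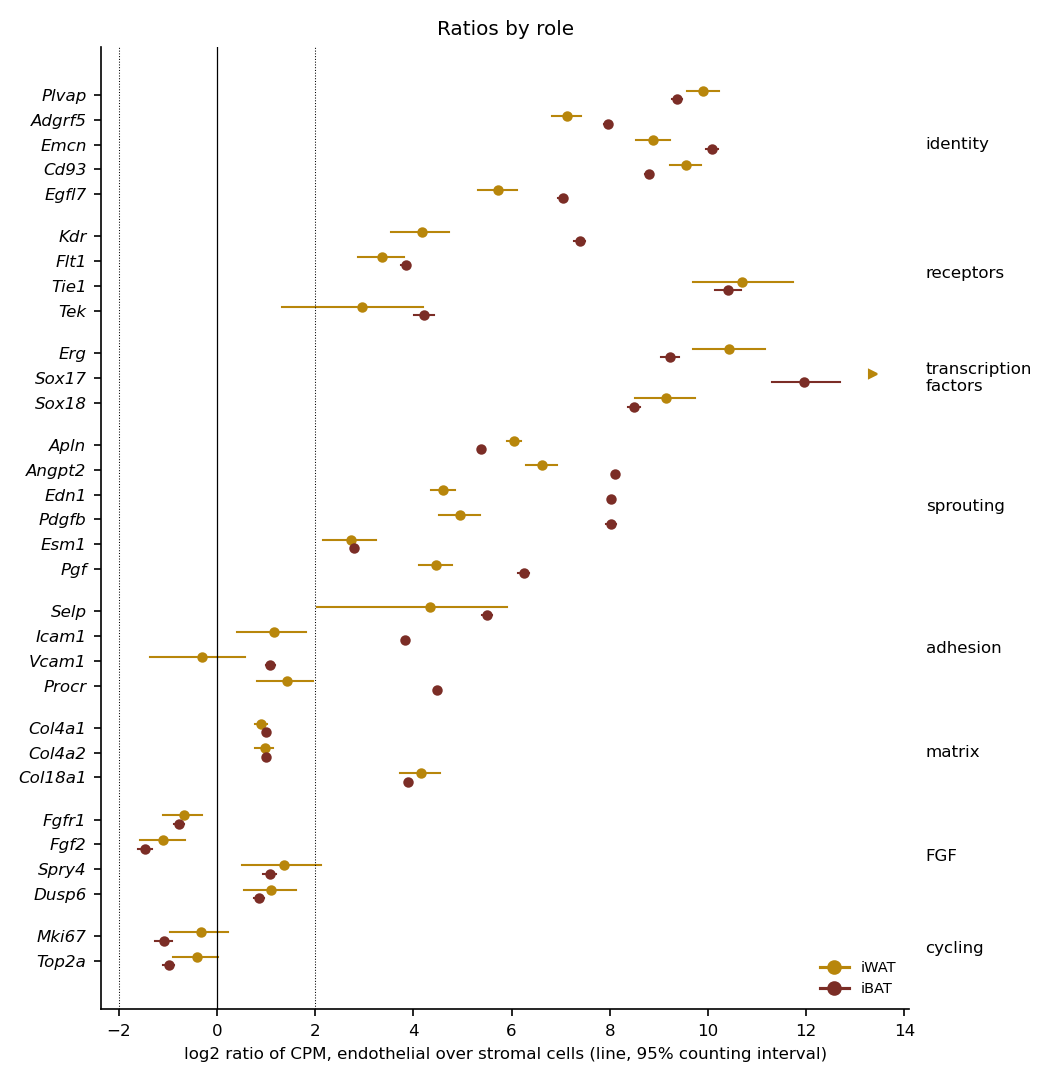
Log2 ratio of summed CPM, endothelial over stromal cells, for genes grouped by role in the iWAT and iBAT libraries, with lines for the 95% counting interval, dotted lines at 4-fold and a triangle for a lower bound. Core genes such as Emcn (471-fold and 1081-fold) lie far to the right, while the FGF receptor Fgfr1 (0.626 and 0.585 of the stromal level) lies left of 0.

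Markers of vessel type were uneven. Among 14 arterial genes, 3 of 7 compared were higher in iWAT and 2 of 6 in iBAT, against 2.57% and 5.06% of all genes. Over all 14, the interval of the ratio lay above 1 for 5 and under 1 for 0 in iWAT, and above 1 for 12 and under 1 for 2 in iBAT. Gja5, the connexin of arterial endothelium, had 1 UMI in iWAT and 270 UMIs in 70 of 223 iBAT cells, or 49.1 CPM (43.4 to 55.3). Thinned, Gja5 was found in 23.3% (17.9 to 29.4) of iBAT endothelial cells against 0.370% (0.299 to 0.453) of stromal and 0.990% (0.120 to 3.53) of immune cells, and the first share depended on depth, with 31.4% unthinned and 14.8% at 5000 UMIs. Among 10 venous genes, 0 of 3 compared were higher in iWAT and 3 of 6 in iBAT, against 2.57% and 5.06% of all genes. Over all 10, the interval of the ratio lay above 1 for 6 and under 1 for 0 in iWAT, and above 1 for 8 and under 1 for 1 in iBAT. Selp, the adhesion molecule P-selectin, was at 214 CPM (202 to 226) in iBAT, 45.2-fold (42.3 to 48.3) over stromal cells, and had 3 UMIs in iWAT. Selp was found in 79 of 223 iBAT cells, so most cells held none.

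Capillary genes of fat were present in part. Of 17 listed, 3 of 5 compared were higher in iWAT and 3 of 8 in iBAT, against 2.57% and 5.06% of all genes. Among the 17, the interval of the ratio lay above 1 for 6 and under 1 for 1 in iWAT, and above 1 for 12 and under 1 for 2 in iBAT. Gpihbp1, which carries lipoprotein lipase across capillaries, had no stromal UMI in iWAT and 57.2 CPM (33.3 to 91.5) in endothelial cells, at least 6136-fold higher, and 31.1 CPM in iBAT. Fabp4, a fatty acid binding protein of capillaries and adipocytes, was at 430.4 CPM (359 to 512) and 764 CPM (741 to 787), 9.95-fold and 6.99-fold over stromal cells. Cd36, a fatty acid receptor, was at 47.1 and 135 CPM, far under the 968 and 1909.6 CPM of immune cells. Car4, Timp4 and Aqp7, markers of fat capillaries in tissue, had 0 UMIs in both depots, for which 3 UMIs set a limit of 10.1 CPM in iWAT and 0.545 CPM in iBAT. Lpl, the lipase itself, was below the stromal level, at 0.468 and 0.272 of it.

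Lymphatic markers were uneven. Of 10 listed, 9 are in the matrices, and in iBAT the interval of the ratio lay above 1 for 5 (Prox1, Lyve1, Flt4, Mmrn1 and Nts) and under 1 for 2 (Pdpn and Fgl2). In iWAT it lay above 1 for Lyve1 and Flt4, found in 2 and 5 of 21 cells, and under 1 for Pdpn, found in 12. Pdpn, which stromal cells also express, was at 205 against 447 CPM in stromal cells of iWAT and at 169 against 602 CPM in iBAT. Prox1, the factor that specifies lymphatic endothelium, had 133 UMIs in 22 iBAT cells, or 24.2 CPM (20.2 to 28.7), 30.4-fold (25 to 36.8) over stromal cells, and no UMI in the 21 iWAT cells. Single iBAT cells reached 1143 CPM, and 201 of 223 were at 0. Nts, the peptide neurotensin, had 563 UMIs in 26 iBAT cells, 1797-fold (1308 to 2531) over stromal cells, with 20.1% of them in 1 cell, and none in iWAT. After thinning, Prox1 was found in 6.28% (3.47 to 10.3) of iBAT endothelial cells, against 0.839% (0.730 to 0.960) of stromal and 0.495% (0.0125 to 2.73) of immune cells. None of the 13 thinned iWAT cells held Prox1, with an interval of 0 to 24.7%. Reln and Stab2 had 13 and 2 UMIs in iBAT, with ratios whose intervals include 1, and Ccl21a is not listed in the matrices.

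The iBAT cells with and without a Prox1 UMI were set side by side, a division made after the values had been seen and given as a description. The 22 Prox1-positive cells had a median of 20671 UMIs and the other 201 a median of 22911. Of the 22, 10 held a single Prox1 UMI and 4 held 2, and 5 cells carried 103 of the 133 UMIs, so the group rests on few cells. Nts was at 966 CPM (880.1 to 1058) in the first and 19.7 CPM (16.03 to 24.01) in the second. Mmrn1, a lymphatic matrix protein, was at 81.2 CPM (57.7 to 111) and 0.199 CPM (0.00504 to 1.11), and Lyve1, a hyaluronan receptor of lymph vessels, at 54.1 CPM (35.4 to 79.3) and 5.78 CPM (3.87 to 8.30). All 3 genes were thus higher in the Prox1-positive cells. In the 12 cells with at least 2 Prox1 UMIs, Nts was at 1728, Mmrn1 at 151 and Lyve1 at 85.4 CPM. Of the 26 cells with Nts, 12 held Prox1, and of the 7 with Mmrn1, 6 did.

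Further genes had other levels in these groups too. The division used Prox1 alone. The Prox1-positive cells held more Aqp1, a water channel (279 against 49.4 CPM), more Selp (475 against 189 CPM), more Nr2f2 (362 against 164 CPM) and more Flt4 (135 against 50.4 CPM). They held less Cxcl12 (198 against 1412 CPM), Apln (331 against 1588 CPM), Vcam1 (20.8 against 201 CPM) and Sox17 (31.2 against 112 CPM). General endothelial genes were present in both groups, with Tie1 at 364 against 225 CPM and Plvap at 1332 against 812 CPM. Hoxd10, a positional factor, was at 41.6 CPM (25.4 to 64.3) against 0.598 CPM (0.123 to 1.75). Gja4, a connexin, was at 110.3 CPM (82.7 to 144) against 11.6 CPM (8.77 to 14.9).

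**Figure D4:**
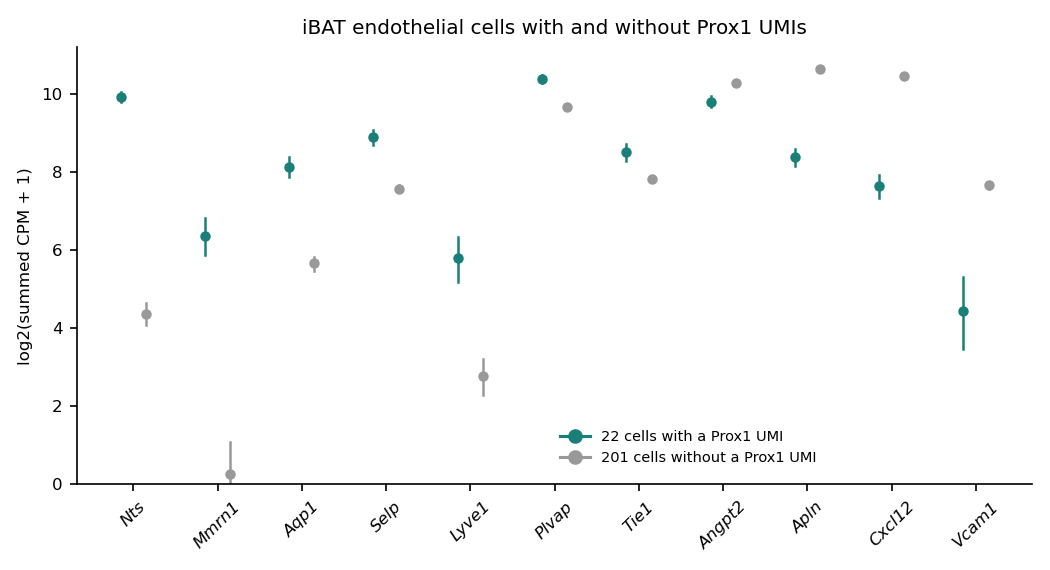
Summed levels, as log2 of CPM plus 1, in the 22 iBAT endothelial cells with a Prox1 UMI and the 201 without, with lines for the 95% counting interval. Nts (966 against 19.7 CPM) and Mmrn1 (81.2 against 0.199 CPM) were higher in the first group, and Cxcl12 (198 against 1412 CPM) and Apln were higher in the second.

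Most iBAT cells with Gja5 or Selp did not hold both. Of the 223 cells, 70 held Gja5, 79 held Selp and 17 held both. Among the 22 Prox1-positive cells, 1 held Gja5 and 16 held Selp. The share of cells with Gja5 depended on depth, as given above. In the Gja5-positive cells Selp was at 24.2 CPM (17.7 to 32.4) against 310.5 CPM (293 to 329) in the 153 others. The Gja5-positive cells held more Dll4 (81.8 against 29.4 CPM), more Vcam1 (311 against 121 CPM), more Angpt2 (1748 against 937 CPM) and more Vwf (108 against 35.7 CPM). Aplnr, the apelin receptor, had no UMI in them and 29.6 CPM in the others. The Selp-positive cells held more Procr, the endothelial protein C receptor (787 against 207 CPM), more Aqp1 (166 against 15.6 CPM) and less Cxcl12 (549 against 1729 CPM). These divisions too were chosen with the values known and carry no test.

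Genes for leukocyte adhesion lay above stromal cells in iBAT, and those for clotting and vessel tone were mixed. Of 10 adhesion genes, 2 of 3 compared were higher in iWAT and 5 of 6 in iBAT, against 2.57% and 5.06% of all genes. Among these adhesion genes, the interval of the ratio lay above 1 for 5 and under 1 for 0 in iWAT, and above 1 for 8 and under 1 for 0 in iBAT. Icam1, a ligand of leukocyte integrins, was at 357 CPM (341 to 373) in iBAT, 14.3-fold (13.6 to 14.99) over stromal cells, and at 60.5 CPM (35.9 to 95.7) in iWAT, 2.24-fold (1.32 to 3.54) over them. In single cells Icam1 ran from 0 to 2066 CPM with a median of 273 CPM in iBAT, with 18 of 223 at 0, and 9 of 21 were at 0 in iWAT. Cd34, a sialomucin of endothelium and progenitors, was 65.3-fold and 12.9-fold higher, and Podxl, a related sialomucin, 124-fold and 371-fold. Of 14 genes of clotting and vessel tone, 2 of 10 compared were higher in iWAT and 7 of 13 in iBAT, against 2.57% and 5.06% of all genes. Across the 14, the interval of the ratio lay above 1 for 6 and under 1 for 3 in iWAT, and above 1 for 8 and under 1 for 4 in iBAT. Those under 1 in iBAT were Thbd and Tfpi, which restrain clotting, at 0.794 and 0.850 of the stromal level, and Ptgis and Ptgs1, enzymes of prostanoid synthesis, at 0.322 and 0.314. Procr was at 415 CPM in iBAT, 22.3-fold (21.3 to 23.3) higher, and at 90.8 CPM in iWAT, 2.69-fold (1.77 to 3.91) over stromal cells. Ednrb, an endothelin receptor, was 219.8-fold (139.7 to 334) and 27.1-fold (23.8 to 30.8) higher.

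Most basement membrane genes lay above stromal cells, by less than 4-fold for the larger part. Over the 15 listed, the interval of the ratio lay above 1 for 9 and under 1 for 1 in iWAT, and above 1 for 11 and under 1 for 3 in iBAT. Col4a1 and Col4a2, the common chains of collagen IV, were 1.86-fold and 1.96-fold over stromal cells in iWAT and 1.99-fold and 2.00-fold in iBAT. Col18a1, the parent of endostatin, was 17.8-fold (13.3 to 23.2) and 14.9-fold (14.3 to 15.6) higher, and Sparcl1, a matricellular protein, 7.91-fold and 11.7-fold. At 4-fold, 3 of 13 compared were counted in iWAT and 2 of 12 in iBAT, against 2.57% and 5.06% of all genes. The 12 genes tied to a change from endothelial to mesenchymal state gave no count in either direction, and the interval of the ratio lay above 1 for 3 and under 1 for 1 in iWAT, and above 1 for 2 and under 1 for 10 in iBAT. Their median log2 ratio was -0.09 in iWAT and -1.24 in iBAT. Twist1 was at 0.267 and Snai2 at 0.330 of the stromal level in iBAT, while Fn1, fibronectin, was 1.24-fold and 1.98-fold over it.

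Because the cultures had received FGFs, the receptors and feedback genes of this pathway were read as well. None of the 15 genes compared in iWAT or the 14 in iBAT was higher by 4-fold, and Spry2 was lower in iWAT at 0.243 of the stromal level (0.0789 to 0.567). Over the 27 genes listed, the interval lay under 1 for 17 and above 1 for 4 in iBAT, and for 5 each way in iWAT. The median log2 ratio of those compared was -0.24 in iWAT and -0.91 in iBAT. Fgfr1, the main receptor, was at 182 CPM (136 to 237) in iWAT, 0.626 of the stromal level, and at 165 CPM (154 to 176) in iBAT, 0.585 of it. Fgf2 was at 135 and 69.3 CPM, 0.470 and 0.364 of the stromal level. Single cells with Fgf2 were uneven. Its level ran from 0 to 374 CPM in iWAT, with 8 of 21 cells at 0. In iBAT it ran from 0 to 1891 CPM, with 128 of 223 at 0. Stromal markers were also found in these cells, as described below, and their part in the Fgf2 level was not tested. Among the fewer genes above stromal cells were the feedback genes Spry4 and Dusp6, Spry4 2.59-fold and 2.11-fold and Dusp6 2.15-fold and 1.81-fold. Sdc3, a heparan sulfate coreceptor, was 2.55-fold and 2.46-fold over stromal cells, but immune cells held 400.4 and 337 CPM. Klb, the coreceptor for FGF21, had no UMI in either depot.

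Proliferation genes lay below stromal cells in iBAT. None of 12 compared there passed 4-fold, but the interval lay under 1 for 11 of 13. In iWAT none of 10 compared passed 4-fold, and 11 of 13 ratios were under 1, with a median log2 ratio of -0.32 over those compared against -0.98 in iBAT. The interval lay under 1 for 1 of the 13 in iWAT. Mki67, a marker of dividing cells, was at 84.1 CPM (54.4 to 124) in iWAT, 0.796 of the stromal level (0.515 to 1.18), and at 47.99 CPM (42.4 to 54.1) in iBAT, 0.472 of the stromal level (0.417 to 0.533). Top2a was found in 9 of 21 iWAT and 102 of 223 iBAT cells. Pcna, a clamp of DNA synthesis, was close to the stromal level, with ratios of 1.19 and 0.951.

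Interferon-response genes were lower in the iBAT library in both kinds of cell. Of 14 listed, 7 were compared between depots, with a median log2 ratio of iBAT over iWAT of -3.76 in endothelial and -3.49 in stromal cells. A gene high in only 1 library entered this median through that library, so its size follows in part from the filter. Summed over all 14, the levels in iWAT and iBAT were 2061 and 1033 CPM in endothelial and 1461 and 711 CPM in stromal cells. In endothelial cells, the interval of the depot ratio lay toward iWAT for 11 of the 14 and toward iBAT for 0. Against stromal cells of their own library, the interval of the ratio lay above 1 for 4 and under 1 for 0 in iWAT, and above 1 for 4 and under 1 for 4 in iBAT. Over 12 genes of antigen presentation, the interval of the ratio lay above 1 for 5 and under 1 for 0 in iWAT, and above 1 for 7 and under 1 for 0 in iBAT. Bst2, an antiviral membrane protein, was at 205 CPM against 178 CPM in stromal cells of iWAT and at 106 against 14.6 CPM in iBAT, 7.24-fold (6.65 to 7.87) higher. H2-K1, a class I heavy chain, was 1.58-fold (1.32 to 1.88) and 4.54-fold (4.36 to 4.73) over stromal cells. Isg15, an interferon-induced ubiquitin-like protein, was level with stromal cells in iWAT (185 against 184 CPM) and lower in iBAT (4.91 against 13.4 CPM). Cd74 and H2-Aa, of the class II pathway, had no UMI in endothelial cells of either depot.

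Genes lower than in stromal cells included several of secreted enzymes. Mmp3, a matrix metalloproteinase, was at 57.2 CPM (33.3 to 91.5) in iWAT against 551 CPM, 0.104 of the stromal level (0.0605 to 0.166), and at 54.7 CPM (48.7 to 61.3) in iBAT against 331 CPM, 0.166 of the stromal level (0.147 to 0.185). Cemip, a hyaluronan-degrading factor, had 1 UMI in iWAT (3.36 against 52.7 CPM) and was at 0.196 of the stromal level (0.166 to 0.229) in iBAT. Sfrp1, a Wnt antagonist, had 4 UMIs, all in 1 cell, in iWAT (13.5 against 133 CPM) and was at 178 against 696 CPM in iBAT. Mmp19 and Mmp10 had 1 and 2 UMIs in iWAT against 78.3 and 78.9 CPM in stromal cells. In iBAT Serpinb2, a protease inhibitor, was at 0.135 of the stromal level (0.0979 to 0.181). Has2, a hyaluronan synthase, and Cebpa, an adipogenic factor, were at 0.208 and 0.212 of the stromal level in iBAT.

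The number of lower genes rested on the cells taken. In iWAT it was 18 with all cells, 53 with the cells free of Pdgfra UMIs, 34 with the stricter choice and 6 with the looser one. In iBAT it was 25, 230, 88 and 0 in the same order. Pdgfra, which marks the stromal cells, had 8 UMIs in 7 of 21 iWAT endothelial cells and 372 UMIs in 100 of 223 in iBAT. The ratios moved as well. With the iBAT cells free of Pdgfra, the log2 ratio went from -2.89 to -3.97 for Serpinb2, from -2.59 to -4.49 for Mmp3, from -2.26 to -4.86 for Has2 and from -2.24 to -4.96 for Cebpa, so the order of these genes depended on the cells taken. The level of Pdgfra was 26.9 CPM in iWAT and 67.6 CPM in iBAT, against the 25.03 and 50.4 CPM of immune cells, which should also lack it. Scrublet marked 13 of the 102 iWAT immune cells as doublets (12.7%), against 1.89% of all filtered iWAT cells. The part of doublets in the immune level was not tested.

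Other stromal transcripts were present too. The 10 stromal markers summed to 15566 CPM in iWAT endothelial cells against 28870.0 in stromal and 3612 in immune cells, and to 4470.4 against 13732 and 2738 CPM in iBAT. Of these markers, none of 7 compared passed 4-fold in either depot, with a median log2 ratio of -0.88 in iWAT and -1.77 in iBAT. Col1a1, a chain of collagen I, ran from 419 to 22994 CPM with a median of 7850.4 CPM in iWAT and from 0 to 24876 CPM with a median of 329.9 CPM in iBAT. Its sum was 9311 CPM in iWAT endothelial cells, 17116 in stromal and 1979.5 in immune cells, and 1820.3, 6265 and 1188 CPM in iBAT. Both lay between immune and stromal cells of their library.

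Endothelial cells with and without a Pdgfra UMI were set side by side. Such a division favours deep cells and cells with stromal transcripts among those with Pdgfra by its construction, so the values are a description. In iBAT the 123 cells without a Pdgfra UMI had a median of 20000 UMIs and the 100 with one a median of 27552. Col1a1 was at 984 CPM (947 to 1023) in the first and 2595 CPM (2537 to 2655) in the second, Plvap at 1113 and 620.5 CPM, and Thy1 at 107 and 409 CPM. The 25 core genes that did not choose cells summed to 9415 CPM without and 5229 CPM with Pdgfra, and the 9 stromal markers other than Pdgfra to 2530.4 and 6139 CPM. The 46 cells with 3 or more Pdgfra UMIs had 3848 CPM of Col1a1. In iWAT the 14 cells without Pdgfra had a median of 10439 UMIs and 6208 CPM (5849 to 6583) of Col1a1, and the 7 with Pdgfra 20164 UMIs and 14044 CPM (13375 to 14738). In the same order, the core genes summed to 4448 and 1579 CPM and the stromal markers to 10617 and 23045 CPM. Apln was at 2121 and 399 CPM in these iWAT groups. The part of stromal transcripts in the counts above was not tested beyond these values.

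**Figure D5:**
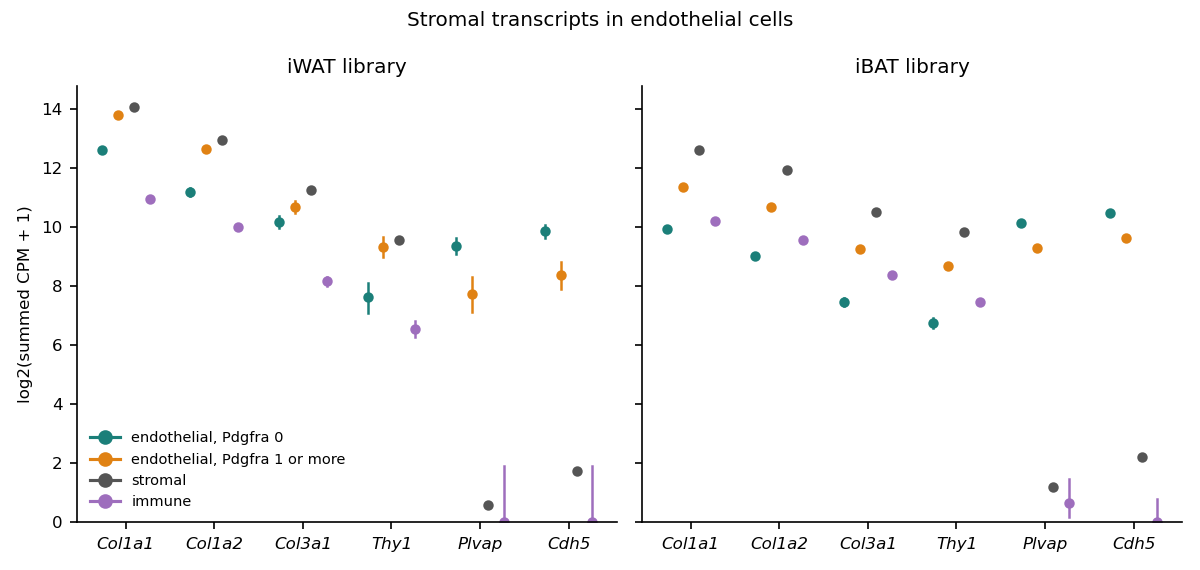
Summed levels of stromal and endothelial genes, as log2 of CPM plus 1, in endothelial cells without and with Pdgfra UMIs, in stromal cells and in immune cells of each library, with lines for the 95% counting interval. In iBAT, Col1a1 was at 984 CPM in cells without and 2595 CPM in cells with Pdgfra, against 1188 CPM in immune and 6265 CPM in stromal cells.

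Mural and epithelial markers were raised in a few iWAT cells. Rgs5, a pericyte marker, had 13 UMIs in 5 iWAT cells, or 43.7 CPM (23.3 to 74.8), and Myh11, smooth muscle myosin, 15 UMIs in 6 cells with 60% of them in 1 cell. In iBAT they were at 2.91 and 3.45 CPM. The 10 mural markers, Mcam among them, summed to 511 CPM in iWAT and 227 in iBAT. The 10 epithelial markers summed to 528 CPM in iWAT and 10.2 in iBAT. Of the Krt8 and Krt18 UMIs of iWAT, 90% and 93.4% were in 1 cell, and without it both stood at 15.1 CPM. That cell, the deepest of the 21 with 32099 UMIs, held 1 Pecam1 and 4 Cdh5 UMIs. It had none of Esam, Plvap, Adgrf5, Emcn, Tie1, Egfl7 or Apln, so these markers do not bear out its endothelial label. Its UMIs are part of the summed iWAT levels. Leaving that cell out gave 112 higher genes in iWAT, of which 99 were among the 104. The part of such cells in the results below is given where they touch one and was not tested further.

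The depots were last set against each other, with the same ratio in stromal cells beside each value. Of 4204 genes compared, 61 were 4-fold or more higher in iBAT endothelial cells (1.45%) and 77 in iWAT ones (1.83%), and all intervals left out 1. With only the cells free of Pdgfra UMIs, 126 genes were higher in iWAT, 55 of the 77 among them. With iBAT set over iWAT, the log2 ratio had a median of -0.02 in endothelial cells and 0.05 for the same genes in stromal cells. Of the 28 core genes, 22 could be compared, with a median log2 ratio of 1.25 toward iBAT against 0.59 in stromal cells. Those that reached 50 CPM in only 1 library entered this median through it, so the filter sets part of the value. Stromal markers went the other way, with 15566 CPM in iWAT endothelial cells against 4470.4 CPM in iBAT ones. Core genes that did not choose cells were lower in sum where Pdgfra was found, as given above. The part of stromal transcripts in this median was not tested. Only Tspan18, a tetraspanin, passed 4-fold among the 22 core genes.

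Several of the largest differences toward iBAT were present in stromal cells as well. Efemp1, a fibulin, had 1 UMI in iWAT endothelial cells and 104 CPM in iBAT, 30.8-fold (5.51 to 1219), with a stromal log2 ratio of 4.00. Mgp, a matrix inhibitor of calcification, had none in iWAT and 310.3 CPM in iBAT, at least 30.8-fold, with a stromal log2 ratio of 4.34. Without the cells that held Pdgfra, the Efemp1 log2 ratio of 4.95 went to 2.00 and the lower bound for Mgp from 4.94 to 3.68. The 1 Efemp1 UMI of iWAT was in the cell with most Krt8 UMIs, and without that cell the lower bound was 3.20. The stricter choice also left no Efemp1 UMI in iWAT, with a lower bound of 2.29. S100a4 and Gstp1 were 15.4-fold and 15.3-fold higher in iBAT, with stromal log2 ratios of 3.97 and 3.57, and the S100a4 log2 ratio went from 3.94 to 2.42 without the cells that held Pdgfra. Bmp4 was 17.2-fold (5.88 to 83.8) and Smad6 16.1-fold (4.43 to 133) higher, on 3 and 2 iWAT UMIs, with stromal log2 ratios of 5.88 and 1.86. Aqp1, a water channel, was 20.7-fold (3.68 to 818) higher, with a stromal log2 ratio of 5.71, on 1 UMI in 1 iWAT cell. That cell was left out by the stricter choice and by the choice of cells free of Pdgfra, which set the Aqp1 log2 ratio, 4.37 with all cells, at a lower bound of 2.27 and 2.28 with 3 UMIs standing for none. Selp, described above, was 21.2-fold (7.23 to 103) higher, with a stromal log2 ratio of 3.24. For Efemp1 and S100a4 the iBAT stromal level was higher still, at 405 and 1112 CPM, and both were higher in iBAT endothelial cells with Pdgfra (179 and 658 CPM) than without (22.3 and 149 CPM).

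Other differences toward iBAT had no such counterpart in stromal cells. The genes described are among the 10 with the largest log2 ratio in endothelial cells minus that in stromal cells. The lack of a stromal counterpart thus follows from that ranking. The rest of the 10 were Itga3, Nts, Tspan18, Tmem252 and Tmem171. Gvin1, an interferon-inducible GTPase, was at 20.2 CPM (7.40 to 43.9) in iWAT and 550.3 CPM (531 to 570.2) in iBAT, 27.3-fold (12.5 to 74.4), while the stromal log2 ratio was 0.21. In single cells it ran from 0 to 3560.0 CPM with a median of 403 CPM in iBAT, and 16 of 21 iWAT cells against 31 of 223 iBAT cells were at 0. Adgrg3, an adhesion receptor, was 16.2-fold (2.89 to 643) higher with 1 iWAT UMI, against a stromal log2 ratio of -1.04. Without the cells that held Pdgfra, its log2 ratio of 4.02 became a lower bound of 2.16, with 3 UMIs standing for none in iWAT. Cd24a, a surface sialoprotein, was 5.16-fold (3.06 to 9.46) higher against -2.25 in stromal cells. Ctla2a, a protease inhibitor, was at 541 and 1827 CPM, 3.37-fold (2.89 to 3.97), against -2.71, and Edn1 was 3.51-fold (2.97 to 4.19) higher against -1.62. Ctla2a and Edn1 did not reach 4-fold between depots.

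Toward iWAT the largest differences mixed library-wide genes with those of single cells. Xist, the RNA of X inactivation, had 124 UMIs in 20 of 21 iWAT cells and none in iBAT, and Ddx3y, a Y-linked gene, had none in iWAT and 113 CPM in iBAT. Sex-linked genes thus differed between the libraries, and sex and depot cannot be told apart here. Hoxc10, a posterior positional factor, was at 87.4 CPM (57.1 to 128) in iWAT and had no iBAT UMI, at least 160.3-fold higher in iWAT, and stood at 148 CPM in stromal and 17.4 CPM in immune cells of iWAT. Without the cells that held Pdgfra, the bound on its log2 ratio, iBAT over iWAT, went from -7.32 to -5.47. Isg15 and Ifit1 were 37.7-fold (23.4 to 62.1) and 29.9-fold (14.3 to 64.95) higher in iWAT, with log2 ratios, iBAT over iWAT, of -5.24 and -4.90 in endothelial cells and -3.78 and -2.29 in stromal cells. Krt7, Krt8, Krt18, Ifi27l2a, Gzme and C1qtnf3 also ranked among the 10 largest, but 79% to 93% of their iWAT UMIs were in 1 cell.

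Some genes were higher relative to stromal cells in iWAT than in iBAT, and 3 of the 10 with the largest such difference are described, picked after their values were seen. The other 7 were C1qtnf3, Gzme, Krt7, Ednrb, Ifit1, Aoc3 and Lurap1l. Mylk, myosin light chain kinase, was at 192 CPM (145 to 248) in iWAT, 7.17-fold (5.42 to 9.30) over stromal cells, and at 0.918 of the stromal level (0.843 to 0.998) in iBAT. Nid2, a basement membrane linker, was 7.00-fold (4.38 to 10.6) higher in iWAT and level in iBAT at 1.06-fold (0.938 to 1.19). Aspn, a matrix proteoglycan, was 2.19-fold (1.49 to 3.09) over stromal cells in iWAT and at 0.327 of the stromal level (0.240 to 0.437) in iBAT. These iWAT values rest on few cells, with 42.1% of the Mylk UMIs in 1, and mural markers were higher in the same library, as given above.

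Most positional genes lay below stromal cells in iBAT, and few had an interval to one side of 1 in iWAT. Over the 23 listed, the interval of the ratio lay above 1 for 1 and under 1 for 3 in iWAT, and above 1 for 6 and under 1 for 14 in iBAT. In iWAT, Hoxc8 and Hoxc10 were at 0.793 and 0.591 of the stromal level, with 10.6 and 17.4 CPM in immune cells against 90.8 and 87.4 CPM here. The 6 above stromal cells in iBAT were Hoxa7, Hoxa9, Hoxb7, Hoxd8, Hoxd9 and Hoxd10, Hoxd9 with 71 UMIs in 42 cells and a ratio of 4.10 (3.19 to 5.19), and Hoxd10 with 23 UMIs in 14 cells and a ratio of 376 (162 to 973). Zic1, a factor of brown fat precursors, was at 0.323 of the stromal level (0.225 to 0.450) in iBAT. None of those compared was 4-fold higher than in stromal cells in either depot, and En1 was lower in iWAT at 0.220 of the stromal level (0.0600 to 0.564).

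How the cells varied among themselves was read from the Fano factor, the variance over the mean of counts thinned to 10000 UMIs, which is near 1 where only counting varies. Its median over genes was 1.21 in 223 iBAT cells and 1.12 in the 13 iWAT cells deep enough. In iBAT high values belonged to the stromal collagen Col1a1 (72.99), the matrix phosphoprotein Spp1 (59.4) and H19, an imprinted RNA (46.1, found in 16 cells). Nts (27.5, in 24 cells) was also among the top 15, as were Ccl2, a chemokine (24.1), and Mgp (33.2). In iWAT they were Col1a1 (43.2), Spp1 (40.6, with 67.01% of thinned UMIs in 1 cell), Tmsb4x (36.6) and Apln (24.3). Col1a1 led the variation in both depots, and stromal transcripts moved with Pdgfra as described above.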

How the data were processed

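Single-cell RNA was captured on BD Rhapsody cartridges from 1 library per depot. The authors deposited matrices of UMI counts per gene and cell, made per the labels and methods with a hosted alignment and annotation pipeline, with mm39 and Seurat 5.0.0 among the builds and tools in the submitters' processing notes. The aligner version, the annotation, the handling of reads that map to several genes and the correction of UMIs are not given in the sources used here. Genes that overlap or have near-identical copies are therefore uncertain.

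Cells with more than 200 and fewer than 7500 genes and under 30% mitochondrial UMIs were kept, as in the published methods. Raw counts were summed over endothelial cells, stromal cells (Pdgfra at 1 or more, Pecam1 at 0) and immune cells (Ptprc and Csf1r at 1 or more, with Adgre1 summing to 4 or more, Cdh5 and Pecam1 at 0) and scaled to CPM. With 1 library per depot no test across samples was possible, and no p-value is given. Genes at 50 CPM in either group and found in 10% of cells of the higher group were compared, with 4-fold as the threshold. The genes used to choose cells were not counted. Where 1 side had no UMI, 3 UMIs stood in for it, which gives a bound. Genes named in the text came from fixed lists by role, from the 15 largest ratios above and the 10 largest below stromal cells, and from the 10 largest differences between depots, raw (interval leaving out 1) or relative to stromal cells (20 UMIs or more in the higher library), and from the 15 largest Fano factors per library. From the role lists up to 30 per comparison were taken, highest level or ratio first, and further list members are named where a count or a group needs them. Genes named to divide the cells were chosen after their values were seen. The members and lists were chosen with earlier results of these data known.

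For shares of cells, each cell was thinned to 10000 UMIs, and shallower cells were left out. Alternatives were a stricter and a looser choice of cells, cells free of Pdgfra UMIs, other cell and expression filters, another comparison group, another scaling, single-cell means, removal of doublets, and other thinning. The scripts were tested on simulated data. Results on 1 item are not reported here. Python 3.11.15, numpy 2.4.6, scipy 1.17.1, pandas 2.3.3, scanpy 1.11.5, matplotlib 3.10.9, R 4.3.3 and edgeR 4.0.16 (TMM factors only) were used. Summed depth was 297384 UMIs over the iWAT and 5500868 over the iBAT endothelial cells.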

Additional observations from a re-analysis of the deposited data

Results flagged for a closer look

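Among 151 genes of the role lists or the named genes compared in both depots, 4 lay above stromal cells in 1 depot and below them in the other, with intervals on opposite sides of 1. The difference between depots was not tested. Mylk, myosin light chain kinase, had a ratio of 7.17 in iWAT and 0.918 in iBAT. Lurap1l had 1.85 and 0.373, Hes1, a Notch target, 1.52 and 0.64, and Acta2, smooth muscle actin, 1.17 and 0.436.

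In iBAT 6 cells met the choice of endothelial cells but held 7500 or more genes and were left out by the cell filter. They had 7741 to 8277 genes and 53373 to 65234 UMIs. Pecam1 was at 684 CPM and Plvap at 503 CPM in them, with Pdgfra UMIs in 5 of the 6 at 149 CPM and Col1a1 at 2521 CPM.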

How the results depend on the processing

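No paired analysis was possible because each depot had 1 library. The number of endothelial cells was 38 in iWAT and 266 in iBAT with a looser choice, which needed no minimum sum. It was 123 in iBAT without Pdgfra UMIs. Choosing after thinning, an alternative chosen after seeing the data, gave 9 iWAT cells at 10000 UMIs, and 13 iWAT and 188 iBAT cells at 5000. With a stricter choice (Pecam1 and Cdh5 at 2 or more, sum at 8 or more) iWAT had 165 higher and 34 lower genes and iBAT 88 lower. The looser choice gave 39 higher and 6 lower in iWAT and 0 lower in iBAT. Without Pdgfra UMIs there were 164 higher and 53 lower genes in iWAT, 230 lower in iBAT and 126 higher in iWAT than in iBAT. Single-cell means gave 79 lower genes in iBAT.

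The filter on low levels set the counts. At 10 CPM, iWAT had 319 higher and 121 lower genes and iBAT 424 and 74, with 219 toward iBAT and 291 toward iWAT between depots. At 200 CPM these were 20 and 2, 55 and 6, and 10 and 10. With no filter they were 1085 and 123, 1722 and 416, and 209 and 931. Shares of cells moved for Gja5 in iWAT, from 7.69% to 0 at 5000 UMIs, and in iBAT to 14.8% at 5000 and 31.4% unthinned, and unthinned iBAT shares were 91.9% for Plvap and 90.1% for Apln.

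Scaling by TMM shifted log2 ratios by -0.14 in iWAT, -0.03 in iBAT and 0.11 between depots. Of 106 values that answer a comparison, 66 stayed within their limits and 40 moved. A reversal was looked for only among the named genes below. Counts of genes were judged by their size and not by which genes were called. With the stricter choice, 41 of the 61 genes toward iBAT and 46 of the 77 toward iWAT were called again. Of 420 values of named genes, 334 stayed, 86 moved and none reversed. Summed depth was lower in iWAT than in iBAT, and 21 cells carry every iWAT value. Scrublet could not be used in iBAT.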
